A study of Mus musculus with 77 samples.

Results

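The heat shock chaperones described here are 10 mouse genes, chosen by their symbols in the deposited expression tables: Hspa1a, Hspa1b, Hspa8, Hsph1, Dnajb1, Hsp90aa1, Hsp90ab1, Hspb1, Hspd1 and Hspe1. Each of the 4 tables lists 24940 gene symbols and holds all 10. The set was picked in part for low Hspa1a and Hspa1b in DBA lungs under hyperoxia, so the oxygen comparison in DBA lungs, and its difference from that in B6 lungs, are given as values with no test. The series asks how genotype shapes the response of newborn mouse lung and of macrophages to high oxygen.

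Whole lungs were taken at postnatal day 14 (P14) from pups kept in 75% oxygen since the first day of life (hyperoxia) or in room air. DBA lungs (strain DBA/2J, a separate inbred strain) gave 4 hyperoxia and 4 room-air libraries. Lungs of Trem2 knock out mice (KO) gave 4 and 4. C57BL/6J (B6) lungs gave 3 and 4, and a second, separately tabulated set of B6 lungs (set 2) gave 3 and 2. Trem2 encodes a lipid-sensing receptor of macrophages. Bone marrow-derived macrophages (BMDM), grown outside the animal, were exposed for 24 h and gave 2 hyperoxia and 2 room-air libraries in each genotype (DBA, KO, B6).

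Heat shock proteins are molecular chaperones that bind unfolded or folding client proteins. HSP70 proteins hold short hydrophobic stretches and release them with the help of J-domain proteins and nucleotide exchange factors. HSP90 finishes the folding of kinases and steroid receptors, and the HSP60 and HSP10 chaperonin folds proteins inside mitochondria. Heat shock factor 1 (Hsf1) binds repeated nGAAn units in the promoters of the inducible members when unfolded protein accumulates. In lung, these proteins are known for their induction by heat, ischaemia and oxidant injury.

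Promoter sequence is shown for the inducible HSP70 pair, by which the set was chosen in part, and for the chaperonin pair described below. Promoter windows from 250 bases before to 50 bases after the start site came from RefSeq (build GRCm38.p6), and 7 of the 10 members matched an entry; Hspa8, Hsp90aa1 and Hsp90ab1 did not. The search was for nGAAn units in alternating orientation, read on both strands. In the lines for Hspa1a and Hspa1b, the 250 bases before each start site are given 5′ to 3′ on the minus strand, and capitals mark 2 adjoining inverted units (GAAnnTTC or TTCnnGAA). The line for Hspd1 and Hspe1 gives the 215 bases between the start sites of these head-to-head genes, on the plus strand, and capitals mark 3 or more adjoining units (TTCnnGAAnnTTC or GAAnnTTCnnGAA; each of these holds a pair).
Hspa1a, chr17:34972157-34972406: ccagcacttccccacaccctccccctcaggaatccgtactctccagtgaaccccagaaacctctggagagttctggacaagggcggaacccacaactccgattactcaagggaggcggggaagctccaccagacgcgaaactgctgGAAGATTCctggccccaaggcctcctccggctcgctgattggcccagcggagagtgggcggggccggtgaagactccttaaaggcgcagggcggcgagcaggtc
Hspa1b, chr17:34959239-34959488: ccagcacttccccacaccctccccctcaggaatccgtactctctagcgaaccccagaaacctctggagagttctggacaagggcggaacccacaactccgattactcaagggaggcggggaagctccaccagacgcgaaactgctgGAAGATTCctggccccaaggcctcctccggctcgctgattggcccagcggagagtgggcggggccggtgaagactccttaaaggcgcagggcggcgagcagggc
Hspd1 and Hspe1, chr1:55087933-55088147: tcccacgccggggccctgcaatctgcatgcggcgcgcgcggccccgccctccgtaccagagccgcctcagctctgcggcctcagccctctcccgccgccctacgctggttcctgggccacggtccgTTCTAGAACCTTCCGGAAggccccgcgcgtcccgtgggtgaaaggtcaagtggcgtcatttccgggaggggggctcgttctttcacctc

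The Hspa1a and Hspa1b stretches were identical at 247 of 250 bases (98.8%), and both held the capital pair at -104 to -97 from the start site. The 3-unit element was found in 3 of the 7 members with an entry, against 179 of the 27025 genes with an entry (0.662%). In Hspd1 (transcript NM_010477) it lay at -144 to -127, and in Hspe1 the same bases lay at -89 to -72. In Hsph1 it lay at 15 to 27, downstream of the start site. The 2-unit pair was found in 6 members, Dnajb1 being the one with an entry and no match, and in 4587 of the 27025 genes (17%). A match is a description of letters in these windows and says nothing of binding.

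**Figure D1:**
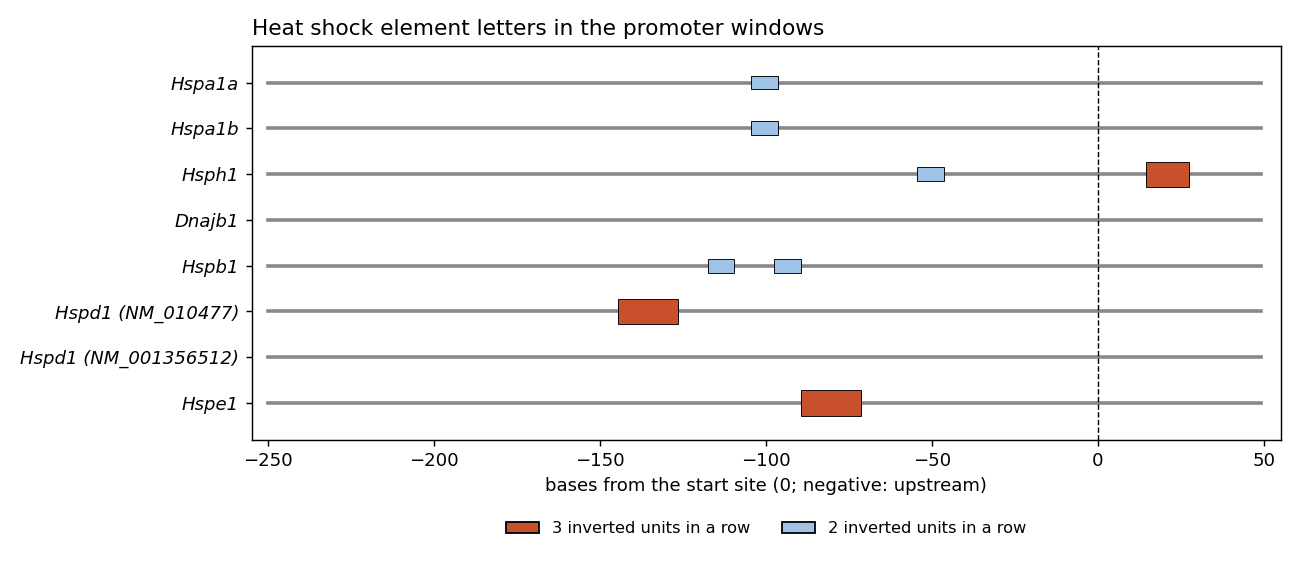
Position of heat shock element letters in the promoter windows of the 7 members with an entry (x axis: bases from the start site, which is 0; negative is upstream). Tall boxes are 3 or more inverted units in a row and short boxes are 2 units; Hspd1 and Hspe1 share the 18-base element between their start sites, and the second Hspd1 transcript starts beyond it.

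Expression was given as TPM, transcript abundance per length scaled to a fixed total per library, which can be set side by side between genes. Depth, estimated in M reads, spanned 12.5 to 41.0 for DBA, KO and B6 lungs. It spanned 14.6 to 46.8 for BMDM, and the set 2 lungs were shallowest, at 7.05 to 8.02. Tests were limma fits on log2(TPM + 1) over all genes, with Benjamini-Hochberg adjusted p under 0.05 as the threshold, and log2 fold changes (log2FC) are on that scale, with standard errors (SE). The labels do not say which libraries came from separate litters or cultures, so p-values measure the spread between these libraries. Trem2 itself was at 1.96 to 2.67 TPM in KO lungs under hyperoxia against 5.97 to 9.85 TPM in B6 lungs under hyperoxia. In room air the lungs overlapped, at 1.05 to 2.75 TPM in KO and 2.14 to 3.73 TPM in B6 lungs, and Trem2 was at 236 to 252 TPM in all KO BMDM libraries against 908 to 962 TPM in all B6 BMDM libraries. Alveolar type 2 cell markers summed to 7092 to 37150 TPM in lungs and 50.1 to 89.2 TPM in BMDM, while the 6 macrophage markers summed to 686 to 6498 TPM in lungs and 15736 to 24138 TPM in BMDM. Erythroid markers summed to 30995 to 79999 TPM in set 2 against 379 to 28393 TPM in the other lungs, and every other TPM of a library shares its total with them. Column headers carry a date code, whose meaning is not given: the B6 lungs of the larger tables fell under an earlier and a later code, the KO lungs under that later code and a further one, and the DBA lungs under 2 codes of their own. DBA and B6 lungs thus shared no date code, and strain and date code cannot be told apart.

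Levels differed widely between members. Hsp90ab1, the constitutive cytosolic HSP90, was highest, at 673 to 819 TPM in B6 and KO lungs. Hspa8, the constitutive HSP70 known as HSC70, followed at 219.9 to 394 TPM. The stress-inducible HSP90, Hsp90aa1, was at 72.6 to 119.5 TPM, and the mitochondrial HSP60, Hspd1, at 43.5 to 80.7 TPM. Hspe1 (its HSP10 lid), Dnajb1 (a J-domain co-chaperone of HSP70), Hspb1 (a small heat shock protein that holds unfolded protein) and Hsph1 (HSP110, a nucleotide exchange factor for HSP70) overlapped one another between 11.3 and 51.4 TPM. The inducible HSP70 genes Hspa1a and Hspa1b were lowest, at 0.828 to 4.28 TPM. They are near-identical copies and several of the others have processed pseudogenes, so the split of reads among copies is uncertain.

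DBA lungs in room air stood apart in the inducible HSP70 pair. Hspa1a was at 1.09, 1.84, 2.04 and 1.37 TPM in the 4 DBA hyperoxia lungs, against 20.7, 7.28, 8.74 and 7.30 TPM in the 4 DBA room-air lungs. Hspa1b was at 1.46, 1.96, 2.25 and 1.301 TPM in DBA hyperoxia lungs, against 22.2, 8.56, 8.95 and 9.78 TPM in DBA room-air lungs. The groups did not overlap for either gene, and the first room-air library was the highest in both. In bulk tissue, fewer cells of a type and less RNA per cell cannot be told apart. The log2FC, by which the set was chosen in part, was -2.10 for Hspa1a and -2.19 for Hspa1b (SE 0.28 each, no test). Without the first room-air library these differences were -1.78 and -1.89.

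Hsph1 and Hspb1 followed the same layout in DBA lungs. Hsph1 was at 10.0, 12.8, 13.5 and 13.4 TPM under hyperoxia and at 75.7, 38.9, 47.5 and 18.8 TPM in room air. Hspb1 was at 36.3, 33.0, 38.5 and 36.8 TPM under hyperoxia and at 84.7, 50.3, 46.0 and 44.4 TPM in room air. Hspa1a, Hspa1b, Hsph1 and Hspb1 were the 4 members with every hyperoxia library below every room-air library, a layout that 11.8% of the 15623 genes in that table shared. The log2FC was -1.63 for Hsph1 (SE 0.31) and -0.58 for Hspb1 (SE 0.22), and between -0.43 and -0.11 for the other 6 members, whose groups overlapped. The median over the 10 members was -0.36, beside 0.05 over all genes, of which 31.0% were called in either direction. Since the members were picked in part on this comparison, nothing is read from these counts.

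The DBA values also differed between date codes, each with 2 libraries a group. Among libraries of the earlier DBA code the log2FC was -2.46 for Hspa1a, -2.47 for Hspa1b, -2.16 for Hsph1 and -0.82 for Hspa8. Among those of the later DBA code it was -1.75 for Hspa1a, -1.92 for Hspa1b, -1.10 for Hsph1 and 0.26 for Hspa8. These are the libraries that served the choice, so nothing is read from the split. Immediate early genes, which respond within minutes to handling and stress, summed to 505 to 811 TPM in DBA hyperoxia lungs and 907 to 1491 TPM in DBA room-air lungs. Their sums were 441 to 565 TPM in B6 hyperoxia lungs and 490 to 656 TPM in B6 room-air lungs. The 6 type 2 cell markers summed to 12916 to 25449 TPM in DBA hyperoxia lungs and 7092 to 11926 TPM in DBA room-air lungs. Erythroid markers summed to 3174 to 11045 TPM in DBA hyperoxia lungs and 7881 to 28393 TPM in DBA room-air lungs. The part of these lists in the chaperone values was not tested.

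**Figure D2:**
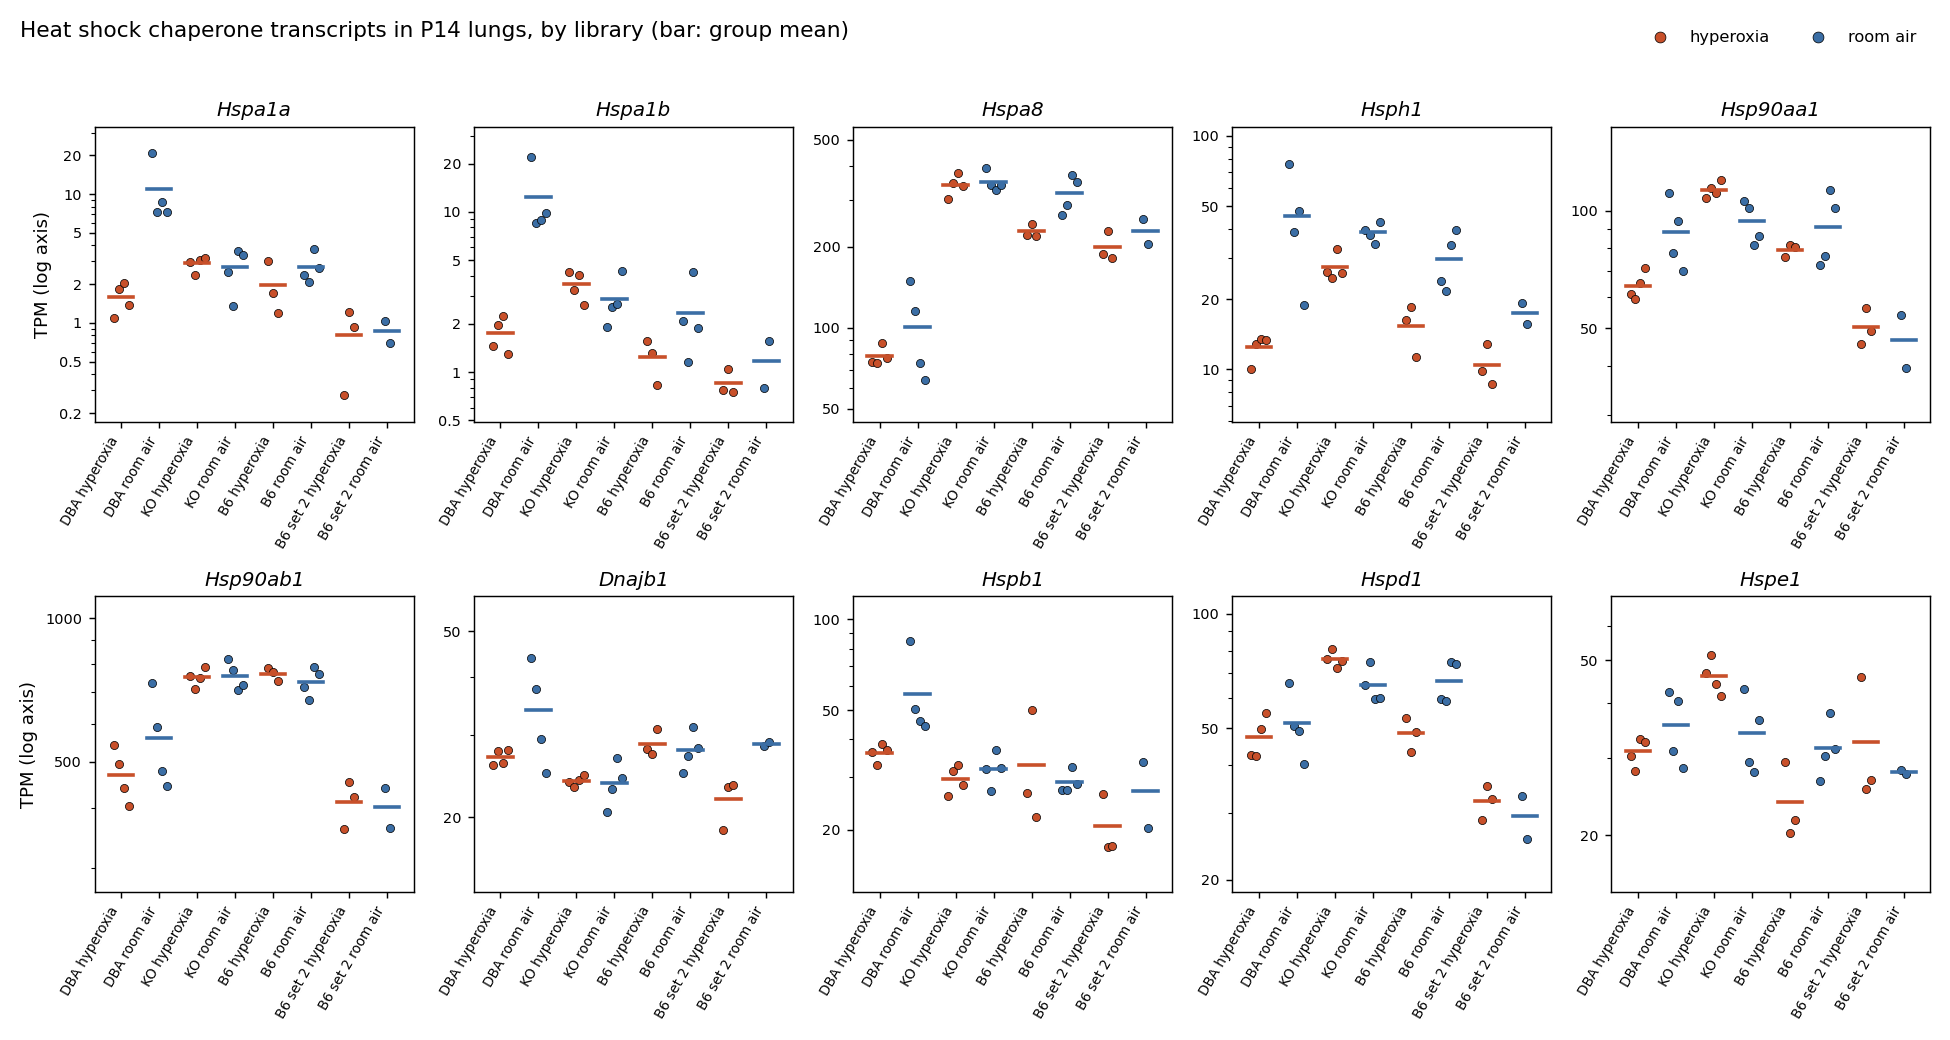
TPM of the 10 members in every lung library (log y axis; points are libraries, bars are group means, hyperoxia left of room air within each strain). DBA room-air lungs hold the highest Hspa1a (7.28 to 20.7 TPM) and Hspa1b (8.56 to 22.2 TPM), and DBA lungs hold the lowest Hspa8 in both gases.

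Against B6, the DBA lungs of either gas had less Hspa8. In room air Hspa8 was at 149.6, 116, 74.2 and 63.9 TPM in DBA lungs, against 264, 287, 371 and 349 TPM in B6 lungs. Under hyperoxia it was at 75.0, 73.9, 88.0 and 77.0 TPM in DBA lungs, against 222, 244 and 219.9 TPM in B6 lungs. The strains did not overlap in either gas. A single build, mm10, is named for all strains, and the part of read placement among copies in these values was not tested. DBA Hspa8 was lower by log2FC -1.71 (SE 0.20, adjusted p = 5.81e-06 by limma; ratio of means 0.318) in room air and by -1.53 (SE 0.22, adjusted p = 4.83e-05; ratio 0.343) under hyperoxia. Hsp90ab1 was also lower in DBA lungs in both gases, at 562 ± 129 against 736 ± 51 TPM in room air (SD, n = 4 each; log2FC -0.41, SE 0.14, adjusted p = 0.0195) and at 469.7 ± 60 (SD, n = 4) against 764 ± 23 TPM (SD, n = 3) under hyperoxia (log2FC -0.71, SE 0.15, adjusted p = 0.00132). The room-air call was lost without DBA room-air replicate 3 or 4 (adjusted p = 0.0640 and 0.0680), without B6 room-air replicate 3 (0.0512), with male libraries only (0.160) and with sex as a term (0.0802).

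Hspb1 differed in the opposite direction. In room air it was at 84.7, 50.3, 46.0 and 44.4 TPM in DBA lungs, against 27.2, 27.0, 32.4 and 28.5 TPM in B6 lungs, with no overlap (log2FC 0.90, SE 0.22, adjusted p = 0.00239). Under hyperoxia the difference was 0.22 (SE 0.23, adjusted p = 0.460). Of the 8 members other than Hspa1a and Hspa1b, 1 was higher and 2 were lower in DBA room-air lungs, where 21.5% of all genes were called higher and 34.8% lower. With quantile normalization 47.9% of the calls over all genes were higher, against 38.2% as tested, and Dnajb1 was called higher too (0.34, adjusted p = 0.0403, against 0.25, adjusted p = 0.124). Under hyperoxia none was higher and 2 were lower, where 23.3% of all genes were higher and 22.8% lower. The members' medians were 0.06 in room air, beside -0.12 over all genes, and -0.18 under hyperoxia, beside 0.02. In room air Hspd1 (-0.32, adjusted p = 0.0553) passed on leaving out DBA room-air replicate 1 (0.00864) or B6 room-air replicate 1 or 2, and Hsph1 and Dnajb1 did so without DBA room-air replicate 4 (0.00891 and 0.0120). Under hyperoxia Hspe1 (0.39, adjusted p = 0.0525) passed without B6 hyperoxia replicate 1 (0.0144), and Hspb1 without B6 hyperoxia replicate 2 (0.0349). For Hspa1a and Hspa1b the room-air means were 11.01 ± 6.5 and 12.4 ± 6.6 TPM in DBA lungs against 2.72 ± 0.75 and 2.34 ± 1.3 TPM in B6 lungs (SD, n = 4 each), given without a test since the DBA room-air libraries served the choice. Under hyperoxia the means were 1.58 ± 0.43 and 1.74 ± 0.44 TPM in DBA lungs (SD, n = 4) against 1.97 ± 0.93 and 1.24 ± 0.37 TPM in B6 lungs (SD, n = 3). All 6 macrophage markers were called lower in DBA than in B6 room-air lungs, as were 5 of 6 type 2 cell markers, and their part in the strain differences was not tested.

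In B6 lungs, 4 of the 10 members were lower under hyperoxia than in room air and none was higher. Hsph1 was at 16.2, 18.5 and 11.3 TPM in B6 hyperoxia lungs, against 23.9, 21.6, 33.9 and 39.4 TPM in B6 room-air lungs. Hspa8 was at 222, 244 and 219.9 TPM under hyperoxia, against 264, 287, 371 and 349 TPM in room air. Hspd1 was at 53.4, 43.5 and 48.9 TPM under hyperoxia, against 59.7, 58.9, 74.6 and 73.9 TPM in room air. Every hyperoxia library lay below every room-air library for these 3 genes. The share of all genes with this layout was not counted, so nothing is read from the layout. Hspe1 was at 29.4, 20.3 and 21.7 TPM under hyperoxia, against 26.5, 30.3, 37.9 and 31.5 TPM in room air, and the groups overlapped.

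Hsph1 fell most, by log2FC -0.89 (SE 0.19, adjusted p = 0.00126 by limma), to 0.517 times its room-air mean. Hspa8 (-0.46, SE 0.11, adjusted p = 0.00431), Hspd1 (-0.45, SE 0.10, adjusted p = 0.00272) and Hspe1 (-0.40, SE 0.16, adjusted p = 0.0479) fell less. Over all genes 26.0% were called lower and 16.6% higher, and the members' median was -0.38 beside -0.07. With quantile normalization, another scaling, 48.5% of the calls over all genes were higher, against 39.0% as tested, and Hspe1 was at -0.36 (adjusted p = 0.0955), the other 3 members staying called. Hspa1a (-0.35, SE 0.24, adjusted p = 0.257), Hspa1b (-0.52, SE 0.26, adjusted p = 0.126) and Hsp90aa1 (-0.17, adjusted p = 0.324) did not pass the test, and Hsp90ab1, Dnajb1 and Hspb1 lay between 0.05 and 0.10. Without room-air replicate 2 the value of Hspa1b was -0.70 (adjusted p = 0.0414).

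The size of these falls differed by date code. All 3 hyperoxia libraries carried the earlier B6 code, as did the lower 2 room-air libraries of Hspa8, Hsph1 and Hspd1, which were male. Both room-air libraries of the later code were female. Among the libraries of the earlier code, 3 against 2, the values were -0.56 for Hsph1 (adjusted p = 0.0672), -0.29 for Hspd1 (0.0917), -0.27 for Hspa8 (0.102) and -0.26 for Hspe1 (0.268), and no member passed the test. Every hyperoxia library still lay below both room-air libraries for Hspa8, Hsph1 and Hspd1, a layout that 36.7% of all genes shared. With date code as a term in the fit, Hsph1 (adjusted p = 0.0195) and Hspd1 (0.0205) kept their call and Hspa8 did not (0.0514). With male libraries only, Hspa8 was at -0.25 (adjusted p = 0.140). The Hspe1 call was also lost on leaving out room-air replicate 2, 3 or 4 or hyperoxia replicate 2 or 3 (adjusted p = 0.0685 to 0.1904).

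In KO lungs 1 member was called, and it was higher under hyperoxia. Hspe1 was at 46.8, 51.4, 44.3 and 41.5 TPM in KO hyperoxia lungs, against 43.1, 29.3, 27.8 and 36.5 TPM in KO room-air lungs. Its log2FC was 0.43 (SE 0.14, adjusted p = 0.0452 by limma), and its groups overlapped. Over all genes 10.6% were higher and 9.11% lower, and the members' median was 0.07 beside 0.01. The Hspe1 call was lost on leaving out KO room-air replicate 2, 3 or 4 or KO hyperoxia replicate 1, 2, 3 or 4 (adjusted p = 0.0550 to 0.122).

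Hspd1 was at 76.2, 80.7, 72.0 and 75.2 TPM in KO hyperoxia lungs, against 65.2, 74.7, 59.8 and 60.2 TPM in KO room-air lungs (log2FC 0.23, SE 0.10, adjusted p = 0.107). Hsp90aa1 was at 107.8, 114.5, 111 and 119.5 TPM under hyperoxia, against 106, 101, 81.8 and 86.3 TPM in room air (0.28, SE 0.12, adjusted p = 0.124). Hsph1 was at 26.1, 24.6, 32.7 and 26.0 TPM under hyperoxia, against 39.7, 37.5, 34.4 and 42.8 TPM in room air (-0.49, SE 0.17, adjusted p = 0.0582). Neither Hsp90aa1 nor Hsph1 passed the test, although Hsph1 did without hyperoxia replicate 3 (adjusted p = 0.0465). Groups did not overlap for either gene, but the share of all genes with that layout was not counted, so nothing is read from the layout. Among the libraries of the code that all KO hyperoxia lungs carry, 4 against 2, all of them male, Hspe1 (0.51, adjusted p = 0.0304), Hsp90aa1 (0.43, 0.00854) and Hspd1 (0.34, 0.0191) were called higher and Hsph1 (-0.48, 0.0445) lower.

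The oxygen response of Hspd1 and Hspe1, the chaperonin pair, was called different between KO and B6 lungs. The difference, KO log2FC minus B6 log2FC, was 0.68 for Hspd1 (SE 0.14, 95% interval 0.37 to 0.98, adjusted p = 0.00288 by limma) and 0.83 for Hspe1 (SE 0.21, 0.38 to 1.28, adjusted p = 0.00930). These were the 2 members called of 10, where 16.4% of all genes were called higher and 8.98% lower. That count is near the share over all genes, so nothing is read from it about the members as a set. Hsp90aa1 (0.44, SE 0.18, adjusted p = 0.0820) and Hspa8 (0.42, SE 0.16, adjusted p = 0.0596) did not pass, although both did without B6 room-air replicate 1 (adjusted p = 0.0269 and 0.0193). Hsp90aa1 also passed without B6 room-air replicate 2 (0.0492), and Hspa8 without KO room-air replicate 1 (0.0372) or KO hyperoxia replicate 1 (0.0409). The median was 0.43 over members and 0.09 over all genes. With date code as a term the differences were 0.62 for Hspd1 (adjusted p = 0.00355) and 0.77 for Hspe1 (0.0438), and with male libraries only 0.58 (0.0107) and 0.85 (0.0156).

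**Figure D3:**
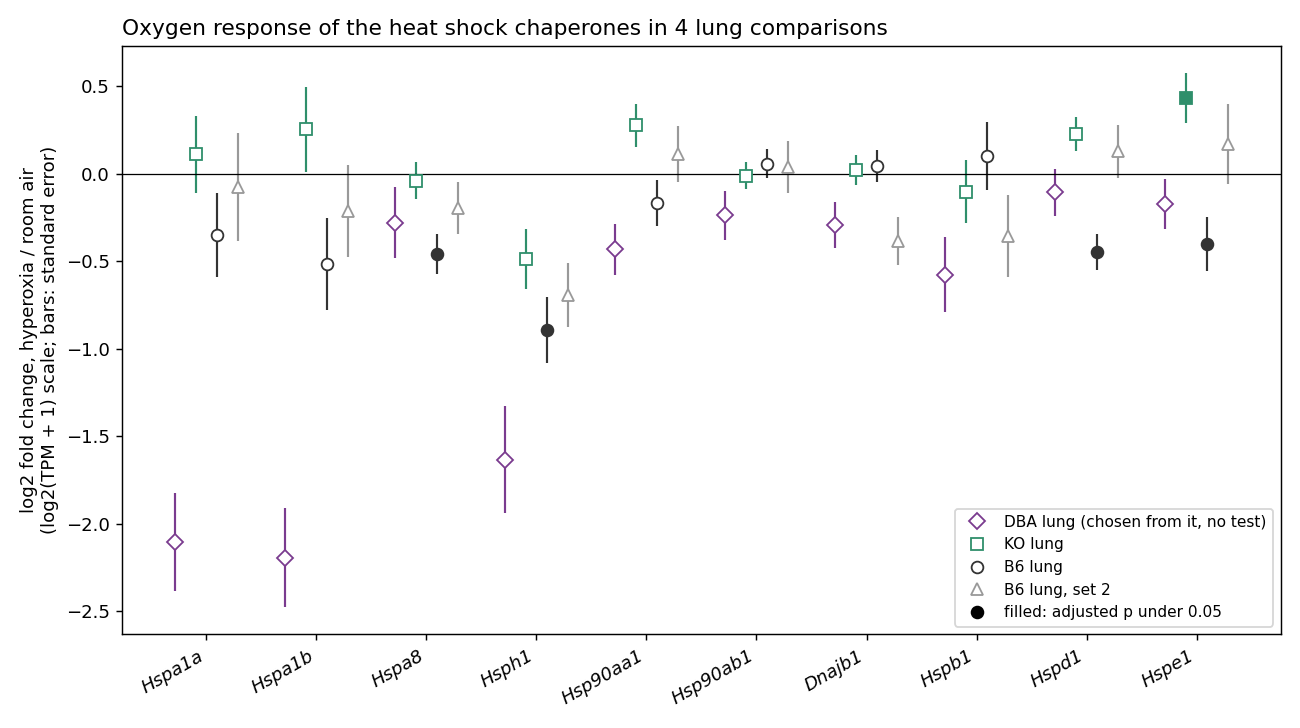
Log2 fold change of each member, hyperoxia over room air, in DBA, KO, B6 and set 2 B6 lungs (y axis on the log2(TPM + 1) scale; bars are standard errors, filled symbols passed adjusted p under 0.05, and DBA values are shown without a test). Hspa1a and Hspa1b lie at -2.10 and -2.19 in DBA lungs, by which they were in part chosen. Hspd1 and Hspe1 lie above 0 in KO lungs, below 0 in B6 lungs and above 0 in set 2 B6 lungs. In set 2 neither was called, and leaving out a library took the values as low as -0.05 for Hspd1 and -0.09 for Hspe1.

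Set beside B6 lungs under hyperoxia, KO lungs under hyperoxia had more of 6 members and less of 1. Hspe1 averaged 46.0 ± 4.2 TPM (SD, n = 4) in KO hyperoxia lungs and 23.8 ± 4.9 TPM (SD, n = 3) in B6 hyperoxia lungs (log2FC 0.94, SE 0.16, adjusted p = 0.000272 by limma). Hspd1 averaged 76.0 ± 3.6 TPM in KO lungs and 48.6 ± 5.0 TPM in B6 lungs (0.64, SE 0.10, adjusted p = 0.000228). Hspa8 averaged 340.2 ± 31 TPM in KO lungs and 229 ± 13 TPM in B6 lungs (0.57, SE 0.11, adjusted p = 0.00123). The libraries of the genotypes did not overlap for any of the 7 members called here. The share of all genes with that layout was not counted, so nothing is read from the layout. Hsph1 (0.81, adjusted p = 0.00322), Hsp90aa1 (0.51, adjusted p = 0.00706) and Hspa1b (1.02, adjusted p = 0.00659) were also higher in KO lungs, Hspa1b at 2.61 to 4.19 TPM against 0.828 to 1.56 TPM. Dnajb1 was lower, at 23.9 ± 0.60 TPM against 28.7 ± 1.9 TPM (-0.25, SE 0.09, adjusted p = 0.0399), a call lost on leaving out B6 hyperoxia replicate 1 or 3 or any 1 KO hyperoxia library.

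Over all genes 22.0% were called higher and 15.2% lower in that comparison, and the median was 0.54 over members and 0.06 over all genes. No KO hyperoxia library shares a date code with a B6 hyperoxia library, so genotype and date code are joined there. With date code as a term, which borrows from room-air lungs, Hspd1 (0.54, adjusted p = 0.0479) and Dnajb1 (-0.66, 0.0199) stayed called and Hspa1b turned to -0.03 (0.980). The macrophage markers summed to 2824 to 3578 TPM in KO hyperoxia lungs and 1819 to 2110 TPM in B6 hyperoxia lungs, with 5 of 6 called higher, and their part was not tested. In room air no member passed the test by limma between KO and B6 lungs, 2 had an unadjusted p under 0.05, and 0.0769% of all genes were called. The largest of those values were 0.40 for Hsph1 (SE 0.17, adjusted p = 0.548) and -0.23 for Dnajb1 (SE 0.08, adjusted p = 0.452). The DBA and KO comparisons use the same B6 libraries, so their values against B6 are not independent of each other.

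Set 2, at its lower depth, gave no call among the members by limma, and 2 had an unadjusted p under 0.05. Hsph1 was at 9.89, 12.9 and 8.66 TPM in the set 2 hyperoxia lungs, against 19.3 and 15.6 TPM in the set 2 room-air lungs, with no overlap (log2FC -0.69, SE 0.18, adjusted p = 0.0656 by limma). Without hyperoxia replicate 2 the value was -0.84 (adjusted p = 0.0310). Dnajb1 was at 18.8, 23.2 and 23.5 TPM against 28.3 and 29.0 TPM in room air (-0.39, SE 0.14, adjusted p = 0.149). Hspd1 was at 28.7, 35.2 and 32.6 TPM under hyperoxia and at 33.3 and 25.7 TPM in room air (0.13, SE 0.15, adjusted p = 0.680), and Hspe1 was at 45.9, 25.4 and 26.7 TPM under hyperoxia and at 28.1 and 27.6 TPM in room air (0.17, SE 0.23, adjusted p = 0.720). The chaperonin pair thus showed no fall there that the test could detect. Of all 14636 genes tested 4.94% were called, and the members' median was -0.14 beside 0.01.

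Other chaperones were counted by lists that exclude the 10 members. In B6 lungs under hyperoxia, 10 of 25 cytosolic co-chaperones fell and 5 rose (list median -0.23 beside -0.07 over all genes). Chordc1, an HSP90 co-chaperone, was at 20.8 ± 1.0 TPM under hyperoxia and 46.5 ± 10.0 TPM in room air (log2FC -1.10, SE 0.14, adjusted p = 1.53e-05). Fkbp4, a steroid receptor co-chaperone, was at 56.5 ± 5.0 TPM under hyperoxia and 105.9 ± 16 TPM in room air (-0.89, SE 0.10, adjusted p = 8.85e-06; SD, n = 3 hyperoxia and n = 4 room air). Of 17 endoplasmic reticulum chaperones 11 fell and 1 rose (median -0.41), among them Pdia4, a disulfide isomerase, at 53.6 ± 4.5 TPM under hyperoxia and 136.9 ± 14 TPM in room air (-1.33, SE 0.09, adjusted p = 9.36e-08). Hsf1, the main heat shock transcription factor, fell to 10.8 ± 0.45 TPM under hyperoxia, against 19.3 ± 0.58 TPM in room air (-0.79, SE 0.10, adjusted p = 2.04e-05).

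Mitochondrial chaperones and proteases went both ways in B6 lungs, 5 higher and 3 lower of 12 (median 0.17). Hspa9, the mitochondrial HSP70, rose to 124.7 ± 15 TPM under hyperoxia, against 80.0 ± 5.2 TPM in room air (log2FC 0.63, SE 0.08, adjusted p = 1.99e-05), so that it and the chaperonin pair Hspd1 and Hspe1 moved in opposite directions. In KO lungs Hspa9 also rose, to 129.5 ± 5.3 TPM under hyperoxia, against 77.8 ± 3.7 TPM in room air (0.73, SE 0.07, adjusted p = 1.54e-05), and in set 2 it reached 86.9 ± 9.6 TPM (n = 3) against 48.8 ± 6.7 TPM (n = 2; 0.82, SE 0.14, adjusted p = 0.0149). Of 8 subunits of CCT, the cytosolic chaperonin, 2 rose and 1 fell in B6 lungs (median 0.07), and 4 rose in KO lungs (median 0.22). Of the 6 tested small heat shock proteins 1 rose and 1 fell in B6 lungs. Hspb8, which works with Bag3 in selective autophagy, was the one that rose (0.83, SE 0.09, adjusted p = 5.03e-06).

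Genes of these lists were also tested singly for a difference in oxygen response between the genotypes, where 16.4% of all genes were called higher and 8.98% lower. For KO minus B6, 10 of 25 co-chaperones were called higher and none lower (median 0.25 beside 0.09 over all genes), and 10 of 17 endoplasmic reticulum chaperones were higher and 1 lower (median 0.42). The difference was 1.06 for Chordc1 (SE 0.19, adjusted p = 0.000862), 0.89 for Fkbp4 (SE 0.14, adjusted p = 0.000416), 1.32 for Pdia4 (SE 0.13, adjusted p = 8.09e-06) and 0.71 for Hsf1 (SE 0.14, adjusted p = 0.00166). In KO lungs themselves 4 co-chaperones rose and 1 fell under hyperoxia (median 0.07 beside 0.01), and 1 endoplasmic reticulum chaperone rose and 1 fell (median 0.05). In KO lungs Hsf1 was at 18.3 ± 3.0 TPM under hyperoxia and 19.1 ± 1.0 TPM in room air (SD, n = 4 each). With quantile normalization 50.9% of all genes called in this difference were higher, against 64.6% as tested, and 3 members were called in place of 2.

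Cold-inducible RNA-binding proteins, which rise when cells cool, were summed in each lung. Their sum was 174 to 202 TPM in B6 hyperoxia lungs and 64.3 to 96.2 TPM in B6 room-air lungs, 69.9 to 91.4 TPM in KO hyperoxia lungs and 60.03 to 80.3 TPM in KO room-air lungs, and 124 to 187 TPM in DBA hyperoxia lungs and 82.4 to 115 TPM in DBA room-air lungs. In set 2, where no member was called, it was 89.1 to 116.2 TPM in hyperoxia lungs and 70.7 to 76.2 TPM in room-air lungs, again without overlap, while in KO lungs the gases overlapped. Cirbp, 1 of the 2 genes of that list, was called higher in B6 lungs under hyperoxia (log2FC 1.56, SE 0.18, adjusted p = 8.00e-06), and its KO minus B6 difference was -1.37 (SE 0.25, adjusted p = 0.000994). Of 14 circadian clock genes tested, 6 were higher and 2 lower in B6 lungs under hyperoxia, and 3 were lower and none higher in KO lungs. No label gives the body temperature or the hour at which lungs were taken, and the part of these lists in the chaperone values was not tested. In DBA against B6 room-air lungs, 12 of 17 endoplasmic reticulum chaperones were lower and 1 higher (median -0.57 beside -0.12), and 7 of 8 CCT subunits were lower (median -0.49). Hsf1 was higher in DBA than in B6 lungs in both gases, at 28.8 ± 2.1 TPM in DBA room-air lungs against 19.3 ± 0.58 TPM in B6 room-air lungs (0.55, SE 0.07, adjusted p = 2.11e-05) and at 20.6 ± 1.3 TPM in DBA hyperoxia lungs against 10.8 ± 0.45 TPM in B6 hyperoxia lungs (0.87, SE 0.08, adjusted p = 9.08e-07). In DBA room-air lungs 9 of 14 immediate early genes were higher than in B6 room-air lungs and none lower, led by Zfp36 at 125.8 ± 25 TPM against 36.7 ± 6.2 TPM (1.74, SE 0.15, adjusted p = 3.52e-07).

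**Figure D4:**
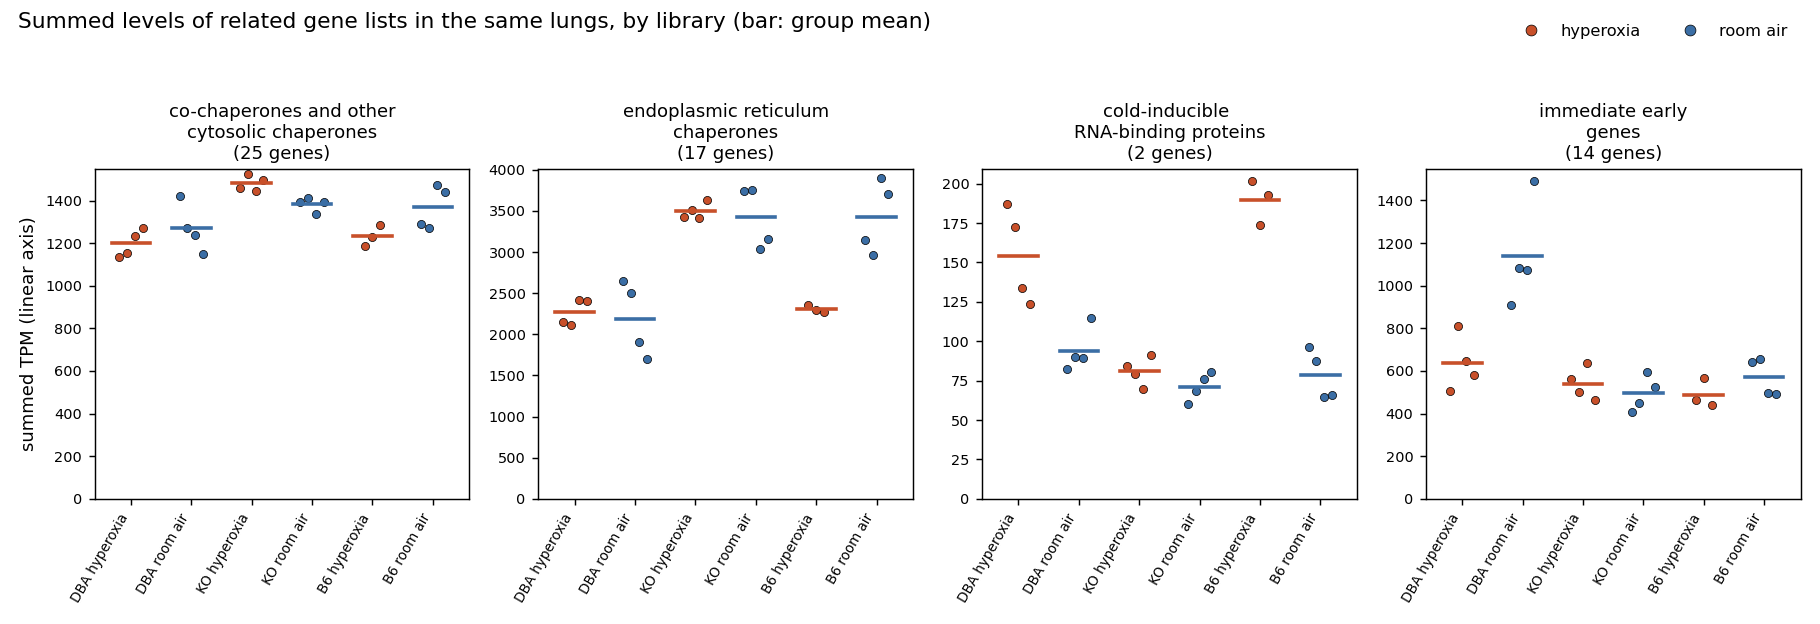
Summed TPM of 4 gene lists in every DBA, KO and B6 lung library (linear y axis from 0; points are libraries, bars are group means, hyperoxia left of room air). Cold-inducible genes sum to 174 to 202 TPM in B6 hyperoxia lungs and 69.9 to 91.4 TPM in KO hyperoxia lungs, and immediate early genes are highest in DBA room-air lungs (907 to 1491 TPM).

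In BMDM, Hspa8, the constitutive HSP70, differed between the genotypes, with the same build, mm10, named for cells and lungs. Hspa8 was at 80.6 and 76.1 TPM in DBA hyperoxia cells, at 250.3 and 242 TPM in KO hyperoxia cells and at 328 and 315 TPM in B6 hyperoxia cells. In room air it was at 122 and 104 TPM in DBA cells, at 272 and 279 TPM in KO cells and at 419.5 and 389 TPM in B6 cells. No pair of genotypes overlapped in either gas. The difference from B6 was -2.02 in DBA cells under hyperoxia (SE 0.07, adjusted p = 5.02e-08 by limma) and -1.83 in room air (SE 0.07, adjusted p = 9.59e-08), the same direction as in lungs. In KO cells it was -0.38 under hyperoxia (adjusted p = 0.00210) and -0.55 in room air (adjusted p = 0.000243). KO lungs did not share that direction. Their Hspa8 mean was 340.2 TPM against 229 TPM in B6 lungs under hyperoxia, and KO and B6 lungs overlapped in room air. All B6 cells carry one date code and all DBA and KO cells another, so genotype against B6 and date code cannot be told apart. Fibroblast markers also separated the cultures, and their part in the chaperone values was not tested: the list summed to 30.6 to 34.5 TPM in DBA hyperoxia cells and 77.6 to 91.0 TPM in DBA room-air cells, and to 24.7 to 32.2 TPM in KO hyperoxia cells and 87.9 to 110.2 TPM in KO room-air cells. In B6 cells it summed to 0.069 to 0.142 TPM under hyperoxia and 0.459 to 0.649 TPM in room air, with 1 of the 6 markers at 0 in every BMDM library.

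Hsp90ab1 was lower than in B6 cells as well, at 367 to 371 TPM in DBA hyperoxia cells and 400.4 to 405 TPM in KO hyperoxia cells against 564 to 568 TPM in B6 hyperoxia cells (log2FC -0.61, adjusted p = 8.45e-06, and -0.49, adjusted p = 5.97e-05; SE 0.05 each). Hspa1a, Hspa1b and Hspb1 stayed under 2.5 TPM in every BMDM library. They passed the filter on low values only through the genotype where they were higher, and are left out of the following counts and medians. Of the other 7 members, 3 were lower in DBA than in B6 cells under hyperoxia and 5 in room air, where 14.0% and 16.2% of all genes were lower, and none was higher, where 46.6% and 40.7% were. For KO against B6 cells 3 were lower under hyperoxia and 4 in room air, where 12.2% and 15.3% of all genes were lower, and none was higher, where 38.1% and 33.9% were. The medians over these 7 members for DBA against B6 cells were -0.25 under hyperoxia, beside 0.26 over all genes, and -0.40 in room air, beside 0.19. For KO against B6 cells they were -0.12 under hyperoxia, beside 0.19 over all genes, and -0.49 in room air, beside 0.14. Quantile normalization took the medians over all genes to within 0.01 of 0 and the share of calls that were higher to 50.4% to 51.5%, against 69.0% to 76.9% as tested. It called 5 of the 7 members lower under hyperoxia and 6 in room air for DBA cells, and 5 in either gas for KO cells, and none higher.

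Of the same 7 members, 2 were called under hyperoxia in DBA cells, 3 in KO cells and 3 in B6 cells. In DBA cells Hspa8 fell (log2FC -0.52, SE 0.07, adjusted p = 0.00167 by limma) and Hspe1 rose, at 37.6 and 33.5 TPM against 29.7 and 22.7 TPM in room air (0.43, SE 0.11, adjusted p = 0.0262). Hspa1a was at 0.618 and 0.926 TPM in DBA hyperoxia cells and 0.366 and 0.117 TPM in DBA room-air cells, given without a test. In KO cells Hspd1 rose, at 69.4 and 72.2 TPM against 58.6 and 51.0 TPM in room air (0.37, SE 0.10, adjusted p = 0.0312), as did Hsp90aa1 (0.23, SE 0.07, adjusted p = 0.0449) and Hsp90ab1 (0.17, SE 0.05, adjusted p = 0.0387). In B6 cells 3 members fell, Hsph1 at 16.3 and 15.4 TPM against 19.8 and 21.0 TPM in room air (-0.35, SE 0.07, adjusted p = 0.00758), Hspa8 (-0.33, SE 0.07, adjusted p = 0.0102) and Hsp90aa1 (-0.22, SE 0.07, adjusted p = 0.0458).

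Over all genes 13.0% were lower and 5.73% higher in DBA cells, 16.4% lower and 6.88% higher in KO cells, and 22.8% lower and 5.68% higher in B6 cells. The medians over the 7 members were -0.0041, 0.17 and -0.22 in DBA, KO and B6 cells, beside -0.06, -0.08 and -0.13 over all genes. With quantile normalization the share of calls that were higher lay between 47.7% and 49.3%, against 19.9% to 30.5% as tested. No member's oxygen response passed the test of a difference between the genotypes, where 0.974% of all genes were called for DBA minus B6 and 1.45% for KO minus B6, and 2 and 3 members had an unadjusted p under 0.05. Hsp90aa1 came nearest, at 0.40 for DBA minus B6 (SE 0.10, adjusted p = 0.0918) and 0.44 for KO minus B6 (SE 0.10, adjusted p = 0.0631). One B6 library of each gas carries the header tag MF and the other the tag F, while DBA and KO libraries share numbers. With these pairs as a replicate block the Hsp90aa1 differences were called (adjusted p = 0.0327 for DBA minus B6 and 0.0255 for KO minus B6), as was Hspe1 in B6 cells (0.29, adjusted p = 0.010005, against 0.0833 without the block). Of the 7 members, quantile normalization called 1 lower and 0 higher in B6 cells, where Hsph1 lost its call (-0.19, adjusted p = 0.0987 by limma). Hsph1 also lost it with only the groups compared (-0.35, adjusted p = 0.0720), while Hspa8 in DBA cells kept its call in both settings. With 2 libraries a group, most of the oxygen calls were lost on leaving out 1 library. In that check Hspa8 in DBA cells and Hsph1 in B6 cells were the calls that held each time. Between genotypes calls were lost in this way for Hspe1 in DBA against B6 room-air cells (lost without DBA replicate 2 or B6 replicate 2, adjusted p = 0.0916 and 0.0644) and for Hsp90aa1 in KO against B6 hyperoxia cells (lost without either KO replicate or B6 replicate 2, adjusted p = 0.0668 to 0.101).

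Of the other chaperones, 3 of 12 mitochondrial chaperones and proteases were higher under hyperoxia in the BMDM of each genotype (medians 0.03 to 0.04), and 2 were lower in B6 cells. Hspa9 was at 162 ± 2.6 TPM under hyperoxia and 112 ± 6.8 TPM in room air in DBA cells (log2FC 0.53, SE 0.06, adjusted p = 0.000474 by limma). In KO cells it was at 154.5 ± 2.6 TPM under hyperoxia and 101.9 ± 5.6 TPM in room air (0.60, SE 0.06, adjusted p = 0.000178). In B6 cells it was at 136.6 ± 0.61 TPM under hyperoxia and 98.8 ± 1.8 TPM in room air (0.46, SE 0.06, adjusted p = 0.000545; SD, n = 2 each). Cirbp, which was higher in B6 lungs under hyperoxia, was lower in the cells of each genotype, by -0.52 in DBA (adjusted p = 0.00454), -0.73 in KO (adjusted p = 0.000596) and -0.43 in B6 cells (adjusted p = 0.00778). Of 17 endoplasmic reticulum chaperones 6 rose and none fell in DBA cells, 3 rose and 2 fell in KO cells, and 1 rose and 7 fell in B6 cells.

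**Figure D5:**
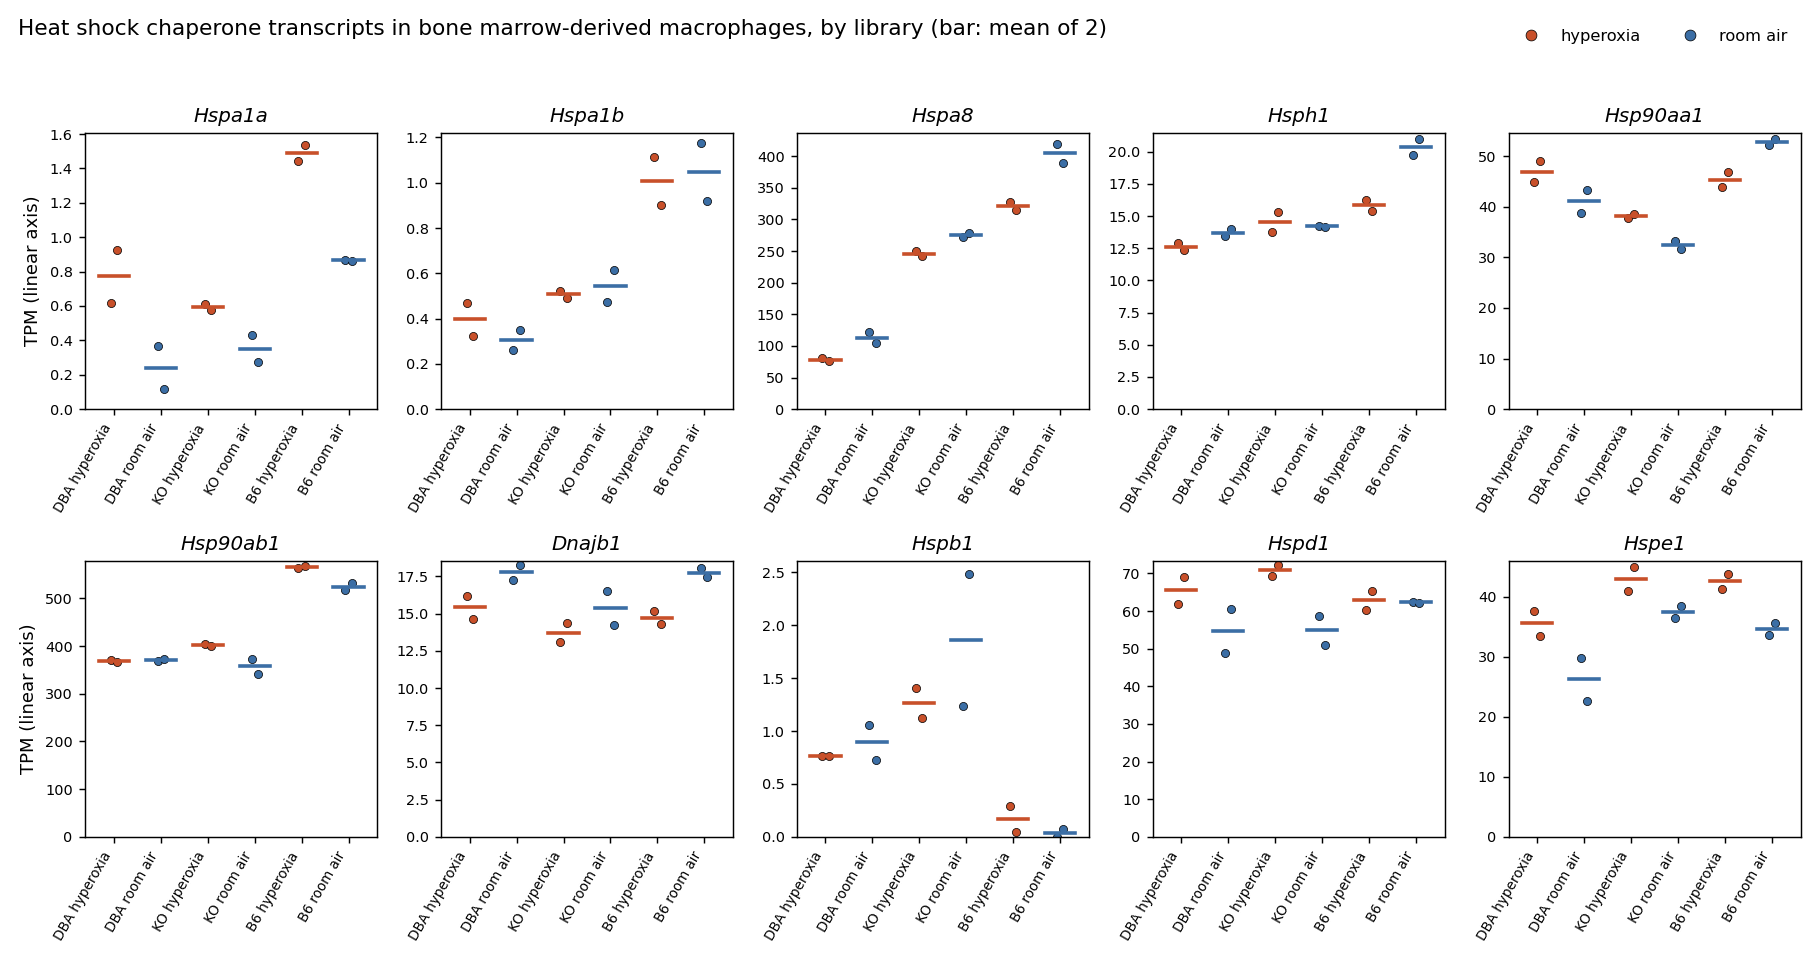
TPM of the 10 members in every BMDM library (linear y axis from 0; points are libraries, bars are means of 2, hyperoxia left of room air within each genotype). Hspa8 lies at 76.1 to 122 TPM in DBA cells, 242 to 279 TPM in KO cells and 315 to 419.5 TPM in B6 cells.

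p53 peak lists were searched within 10 kb of each member's start site, since p53 binding is the other measurement of the series. The lists held 134 to 255 peaks in lungs and 1263 to 4107 in BMDM. A single peak was found, in B6 BMDM under hyperoxia, at chr17:45563755-45563955 (mm10), 9406 bases downstream of the Hsp90ab1 start site and beyond the 3′ end of that gene, with the authors' peak score of 27. The lists were called on combined replicates, so no spread between libraries can be given.

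The genes with the profile most like Hspa1a and Hspd1 were named by Pearson's r over the 15 libraries of the KO and B6 table and the 15 of the DBA and B6 table, which share the B6 libraries. For Hspa1a the nearest was Irx2 (r = 0.85 and 0.86 in these tables), a homeobox gene, ahead of Wdr47 (0.77 and 0.74) and the J-domain gene Dnaja4 (0.73 and 0.80). For Hspd1 they were Hspa5 (0.89 and 0.90), the HSP70 of the endoplasmic reticulum, Ipo7 (0.93 and 0.86), an importin, and Stip1 (0.86 and 0.88), which couples HSP70 to HSP90. Among the members compared, which leave out Hspa1b, the nearest to Hspd1 was Hsp90aa1 (0.82 and 0.74), while Hspe1 gave 0.82 and 0.56. The nearest to Hspa1a by the smaller r was Hspe1 (0.55 and 0.63), while Hsph1 gave 0.50 and 0.84. The DBA libraries in the second value of each pair served the choice of Hspa1a. These are descriptions across libraries that share groups and date codes.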

How the data were processed

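RNA-seq libraries of P14 lungs and of BMDM and p53 ChIP-seq peak lists were analysed. The authors deposited 4 TPM tables; STAR, Bowtie2, HOMER and build mm10 are named in the submitters' processing notes, and no roles beyond the file headers are stated here. Peak lists carry the authors' score per peak and came from HOMER findPeaks on combined replicates, per the file headers. The members and lists were chosen with earlier results of these data known.

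Each table was fitted alone on log2(TPM + 1), keeping genes at 1 TPM or more in as many libraries as its smallest group has, with limma 3.58.1 (R 4.3.3; all groups in the fit, empirical Bayes with trend, two-sided, Benjamini-Hochberg over the 15614 genes of the KO and B6 table, 15623 of the DBA and B6 table, 14636 of set 2 or 12320 of BMDM). TPM is not a count, so no count test was used, and a log2 fold change with pseudocount 1 understates changes of low genes. Depth was estimated from the steps of TPM times length; its precision is that of an estimate. Headers do not tie lung columns to titled replicates, so replicates here are numbered in header order. B6 columns are the same libraries in both larger lung tables, but Hspd1 is tabulated as NM_010477 with KO and BMDM and as NM_001356512 with DBA and set 2. Tested on simulated data, 200 altered genes a table, log2 changes of 1 were recovered for 96% of genes (B6 lung oxygen comparison), 89% (DBA against B6 in room air), 76% (set 2) and 95% (B6 BMDM). The simulated noise was normal and independent between libraries, with no date code or sex effect, and only genes averaging above 5 TPM were altered. These rates do not cover smaller changes, or genes as low as Hspa1a and Hspa1b in B6 lungs. Alternatives were pseudocount 0.1, quantile normalization, no filter, only the groups compared, date code or sex as a term, single date codes, male libraries, Hspa1a and Hspa1b summed, each library left out, and replicate blocks. Genes named from a list had a mean of at least 5 TPM and the largest called changes of their list. Python 3.11.15 read sequences and peaks.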

Additional observations from a re-analysis of the deposited data

Results flagged for a closer look

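In the 4 DBA room-air lungs, 1 library lay far above the other 3 for 3 members, at 20.7 TPM for Hspa1a, 22.2 TPM for Hspa1b and 84.7 TPM for Hspb1. It was the same library, the first room-air library of the earlier DBA date code, in each case. The 50 sets of 4 values examined for a lone extreme value were each 1 member in 1 lung group. Of these sets 3 were set apart, and chance sets apart about 1 in 20. The 3 sets share 1 library, and the DBA libraries served the choice of Hspa1a and Hspa1b, so nothing is read from them.

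The oxygen response differed between KO and B6 lungs by the test of the difference itself for Hspd1 (0.68 on the log2 scale, KO minus B6) and for Hspe1 (0.83). In that test 16.4% of all genes were called higher, and 2 of 10 members is near that share. No KO hyperoxia library shares a date code with a B6 hyperoxia library, and within the earlier B6 code neither gene's fall passed the test. In set 2 B6 lungs Hspd1 averaged 32.2 TPM under hyperoxia and 29.5 TPM in room air. Hspe1 averaged 32.7 and 27.9 TPM there, and neither gene was called. Leaving out a set 2 library took the log2FC as low as -0.05 for Hspd1 and -0.09 for Hspe1.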

How the results depend on the processing

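Of 2555 member values under the alternatives, 2248 kept direction and side of the threshold, 113 changed sign without being called either way, 108 lost a call, 55 gained one and 29 moved beyond the spread. The other 2 changed sign and were called in 1 of the fits compared: Hspa1b for KO against B6 lungs under hyperoxia with date code as a term (-0.028, adjusted p = 0.980, against 1.02 and called) and Dnajb1 for DBA against B6 BMDM under hyperoxia with quantile normalization (-0.25, adjusted p = 0.0317, against 0.06 and not called). Members called for B6 lung oxygen numbered 4, against 0 within the earlier B6 date code, 2 with male libraries and 2 with date code as a term. For KO lung oxygen they numbered 1, against 0 with quantile normalization, 0 with no filter, 3 with only the groups compared, 4 within the date code of the hyperoxia libraries, 2 with date code as a term, 3 with sex as a term and 0 to 1 on leaving out each library. For KO minus B6 lungs they numbered 2, and 2 to 4 on leaving out each library; for KO against B6 lungs under hyperoxia 7, against 2 with date code as a term; for DBA against B6 lungs under hyperoxia 2, against 4 with only the groups compared; for set 2, 0, and 0 to 1 on leaving out each library. The DBA lung oxygen median of -0.36 became -0.72 within the earlier DBA date code. The BMDM oxygen calls were counted over the 7 members other than Hspa1a, Hspa1b and Hspb1. In DBA cells 1 was higher and 1 lower, against 3 and 1 with quantile normalization and 0 and 1 with only the groups compared. In KO cells 3 were higher and 0 lower. These KO counts were 2 and 0 with quantile normalization, 0 and 0 with no filter, and 4 and 1 with only the groups compared. In B6 cells 0 were higher and 3 lower. These B6 counts were 0 and 1 with quantile normalization, 0 and 2 with no filter, and 0 and 0 with only the groups compared. For DBA against B6 BMDM in room air 5 of these 7 members were lower, beside 16.2% of all genes, and 4 were lower with only the groups compared. Where a BMDM library was left out, the lone sample was assumed to vary like the other groups. The causes were not tested.

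Libraries that share a number deviated together with r = 0.385 in B6 BMDM, -0.0508 in KO BMDM, 0.0790 in DBA BMDM, and 0.0475 and 0.00827 in set 2, and in B6 BMDM the pairs are those that share a header tag, MF or F. No label says that a number marks a shared culture. With these pairs as a replicate block the calls were 4 in each BMDM oxygen comparison, 1 (Hsp90aa1) for KO minus B6 BMDM, 1 (Hsp90aa1) for DBA minus B6 BMDM and 0 in set 2. No paired analysis was possible because header numbers restart within a date code in the larger lung tables. With 2 to 4 libraries a group, changes as small as those of Dnajb1 or Hsp90ab1 sit near what the spread allows, and Hspa1a and Hspa1b rest on an estimated 4 to 117 reads a BMDM library.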
